A study of Mus musculus with 36 samples.

Results

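Parvalbumin is a small cytosolic protein that binds calcium through EF-hand loops and so buffers calcium in the cell. In the cerebral cortex its gene, Pvalb, marks fast-spiking inhibitory neurons, which carry Kv3 potassium channels and are often wrapped in a perineuronal net of extracellular matrix. In the superior colliculus, the midbrain structure that turns visual and other sensory input into orienting movements, Pvalb is known from both inhibitory and excitatory neurons.

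The neurons described here were chosen by their Pvalb value. Of 36 single neurons, 25 were Pvalb-high (a value of 300 or more) and 6 were Pvalb-low (a value under 100). The other 5 lay between the thresholds and were left out of the comparison. All 36 were neurons of mice carrying the M11GTTG cassettes of MADM (mosaic analysis with double markers, in which Cre-driven recombination between chromosomes labels the 2 daughters of a dividing cell) together with Fz10-CreER or Sox2-CreER, the driver that set which progenitors could recombine. Labelling was at embryonic day 12, and cells with the same letter in their title formed 1 clone, read as the progeny of 1 labelled radial glia progenitor. There were 18 clones with 2 sequenced cells each. By tissue label 22 cells came from sSC, 12 from dSC and 2 from PAG, taken to mean superficial superior colliculus, deep superior colliculus and periaqueductal grey. The labels give the age of the animals only as a range over the experiments. They name no animal for a clone, so p-values measure the spread between clones and cannot say whether clones shared an animal.

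The unit is the authors' deposited expression signal per gene and cell, which they named TPM of exon plus intron. Each cell summed to 2000000, so a value is not a plain TPM. Such values hold no read depth, so genes detected (genes reaching a value of 1) served in its place. The 36 cells had 2661 to 16769 genes detected, and the 2661 belonged to 1 Pvalb-low library, the sSC cell of clone B. Snap25, a synaptic protein gene of all neurons, was above 0 in every cell, from 299.8 in that library to 4008. That library also had the lowest summed pan-neuronal markers (910.2) and the highest summed astrocyte markers (2852) of the 36 cells.

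Pvalb values are given as a description only, because they chose the groups. Over all 36 cells the median was 569.6, and 34 cells were above 0. The 25 Pvalb-high cells spanned 311.5 to 3057 (median 816.3), and the highest was a dSC cell of clone D. Among the 6 Pvalb-low cells, both cells of clone B (1 dSC, 1 sSC) were listed at 0. The dSC cell of clone O had 20.7, the sSC cell of clone I 41.2, the PAG cell of clone H 56.5 and the sSC cell of clone F 69.8. Just above the upper threshold lay cells of clone A (311.5) and clone F (334.6), and just below it cells of clones L (297.3) and Q (276.4). Just below the lower threshold was the clone F cell at 69.8, and the nearest cell above it, the dSC cell of clone I, had 159.6.

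Both sides held all 3 tissue labels and both drivers. The Pvalb-high cells were 15 from sSC, 9 from dSC and 1 from PAG, in 16 clones. The Pvalb-low cells were 3 from sSC, 2 from dSC and 1 from PAG, in 5 clones. By driver, 15 high cells carried Fz10-CreER and 10 carried Sox2-CreER, against 3 and 3 low cells. The Pvalb median was 521.8 in sSC and 687.7 in dSC, and it was 643.4 with Fz10-CreER and 521.8 with Sox2-CreER.

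**Figure D1:**
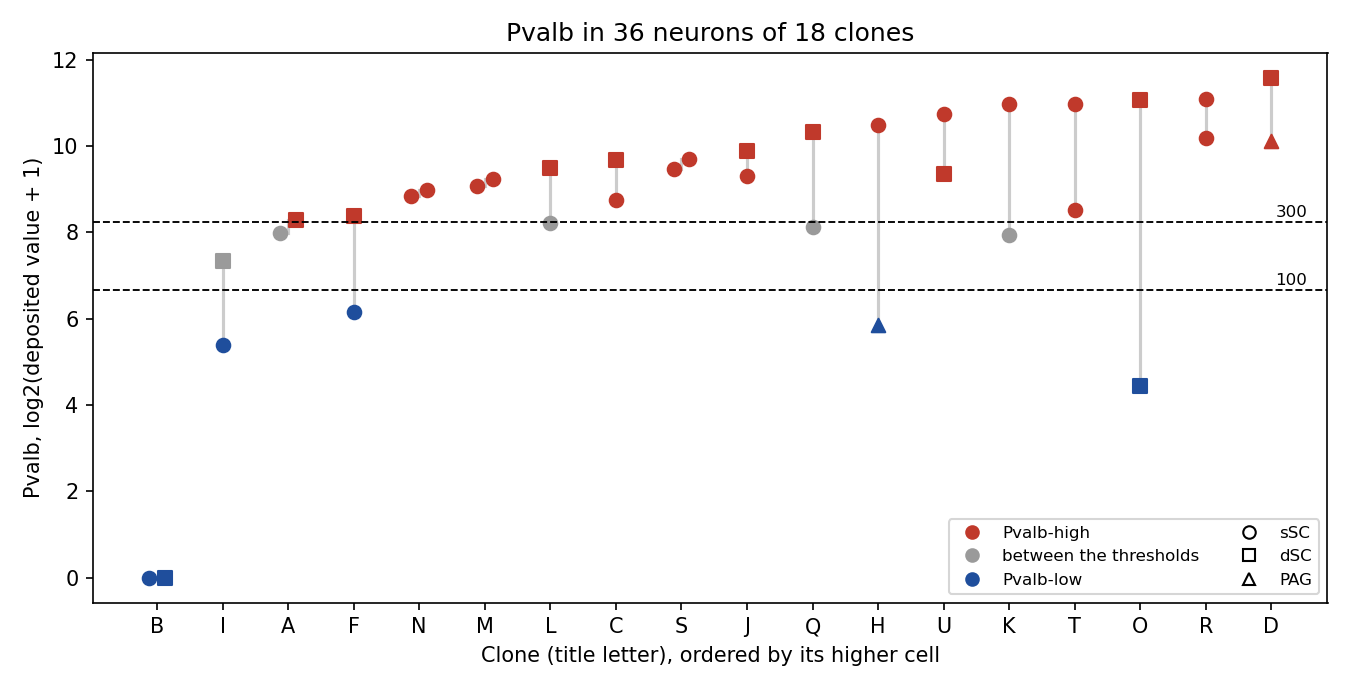
Pvalb in each of 36 neurons, on a log2(value + 1) axis, with the 2 cells of each clone joined by a grey line and the thresholds of 300 and 100 dashed. Both cells were high in 9 clones, and in clones F, H and O 1 cell was high and the other low.

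Clone membership and Pvalb side were related as follows. Both sibling cells were Pvalb-high in 9 clones, and both were low in clone B. In 4 clones (A, K, L and Q) a high cell was paired with one between the thresholds, and in clone I a low cell was. The remaining 3 clones, F, H and O, were split between high and low. Clone O had the widest gap, from 20.7 to 2134 in 2 dSC cells, or 6.62 on the log2(value + 1) scale. Clone H went from 56.5 in PAG to 1434 in sSC, and clone F from 69.8 in sSC to 334.6 in dSC. At the other end, the siblings of clones N, M, S and A differed by 0.15, 0.17, 0.22 and 0.30 on that scale.

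The main comparison asked which other genes differed between the sides. Cells of 1 clone on the same side were averaged, which left 16 high and 5 low clone means. No gene of 14737 tested differed at an adjusted p under 0.05 (0.0% called, limma with Benjamini-Hochberg adjustment). The smallest adjusted p was 0.348. At an unadjusted p under 0.05 there were 880 genes, 718 higher in Pvalb-high cells (4.87% of genes tested) and 162 lower (1.1%). A gene had to reach 1 in at least 8 of the 31 compared cells, so a gene found only in the 6 low cells could not enter the test. A gene at 0 in all 6 low cells could enter through the high cells alone. The share of such genes among all genes tested was not counted, so zeros in all 6 low cells are given below as a description only.

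The number of higher genes moved with 1 library. The median difference over all genes was 0.35 (high minus low, log2), with 9644 genes higher. Without the clone B library of 2661 genes the median was 0.06, and 467 genes were higher and 444 lower at an unadjusted p under 0.05. It was 0.03 with the number of genes detected as a covariate. The number of genes detected averaged 11504 ± 2406 over high clones (SD, n = 16) and 10147 ± 2888 over low clones (SD, n = 5), a difference of 1356 (exact two-sided permutation p = 0.307, 0.461 adjusted over 3 measures). Within sSC, genes detected averaged 11136 over 10 high clones and 6502 over 3 low clones (exact permutation p = 0.021, adjusted 0.0629).

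Nrn1, which encodes neuritin, a membrane-anchored protein that promotes neurite growth and synapse stability, had the largest difference among the 10 genes with the smallest p in the higher direction. It was listed at 0 in 4 of the 6 low cells: both cells of clone B and the sSC cells of clones F and I. The other low cells had 36.4 (clone O, dSC) and 431.7 (clone H, PAG). In the 25 high cells it spanned 0 to 983.1 (median 252.8), and 24 were at 1 or more. The difference was 4.63 (SE 0.98, adjusted p = 0.348). The sides overlapped. The single high cell at 0 was the PAG cell of clone D, and the low cell at 431.7 was the other PAG cell. Within sSC and dSC the 24 high cells ran from 24.5 to 983.1, and the 5 low cells from 0 to 36.4.

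Nrn1 passed the threshold in 8 of 42 other settings of the high-low comparison, with differences from 2.43 to 7.50 and all of them positive. The slope over log2 Pvalb in all 18 clones is not among these and also passed (0.76 per log2 unit, adjusted p = 0.00049, and 0.00637 without the clone B library). It averaged the 2 cells of each clone, so the contrast between the cells of clone H did not enter it. That slope passed for 457 of 14901 genes, and for 23 of 14889 without that library. Each of the 8 leaves out the low PAG cell of clone H, and a setting that leaves it out by taking low as under 30 gave an adjusted p of 0.281. With tissue as a covariate, which leaves PAG out, it was the 1 gene called (6.29, SE 0.80, adjusted p = 0.00017). In sSC alone it differed by 7.45 (SE 1.20, adjusted p = 0.00609), and the value was again 7.45 without the clone B library (adjusted p = 0.0042). All 3 sSC low cells were at 0, so the low side had no spread and leaving out that library could not change the difference. The low cells of clones B and I, which remain without the split clones, were also all at 0. Without clone H Nrn1 differed by 6.22 (adjusted p = 0.000449). Within the 3 clones that were split, Nrn1 was 163 in the high cell and 0 in the low cell of clone F, and 255.6 and 36.4 in clone O. Clone H went the other way, with 59.4 in the high cell and 431.7 in the low cell. A fit with clone as a block gave 2.43 (SE 2.02, adjusted p = 0.842).

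Nrn1 also varied with transmitter genes. A transmitter balance was taken as the mean log2 of Gad1, Gad2 and Slc32a1, the genes for making and loading GABA, minus that of Slc17a6, the vesicular glutamate transporter. Of the Pvalb-high cells 13 lay on the GABA side and 12 on the Slc17a6 side, and of the low cells 5 and 1. All 5 cells between the thresholds lay on the Slc17a6 side, where the cells of clones K and Q were close to even at -0.001 and -0.11. In high cells the Nrn1 median was 127.1 on the GABA side and 427.0 on the Slc17a6 side. In the 5 low cells of the GABA side the median was 0, and only the clone O cell was above 0. The 1 low cell of the Slc17a6 side was the PAG cell at 431.7. With the balance as a covariate the Nrn1 difference was 3.74 (SE 0.89, adjusted p = 0.798).

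**Figure D2:**
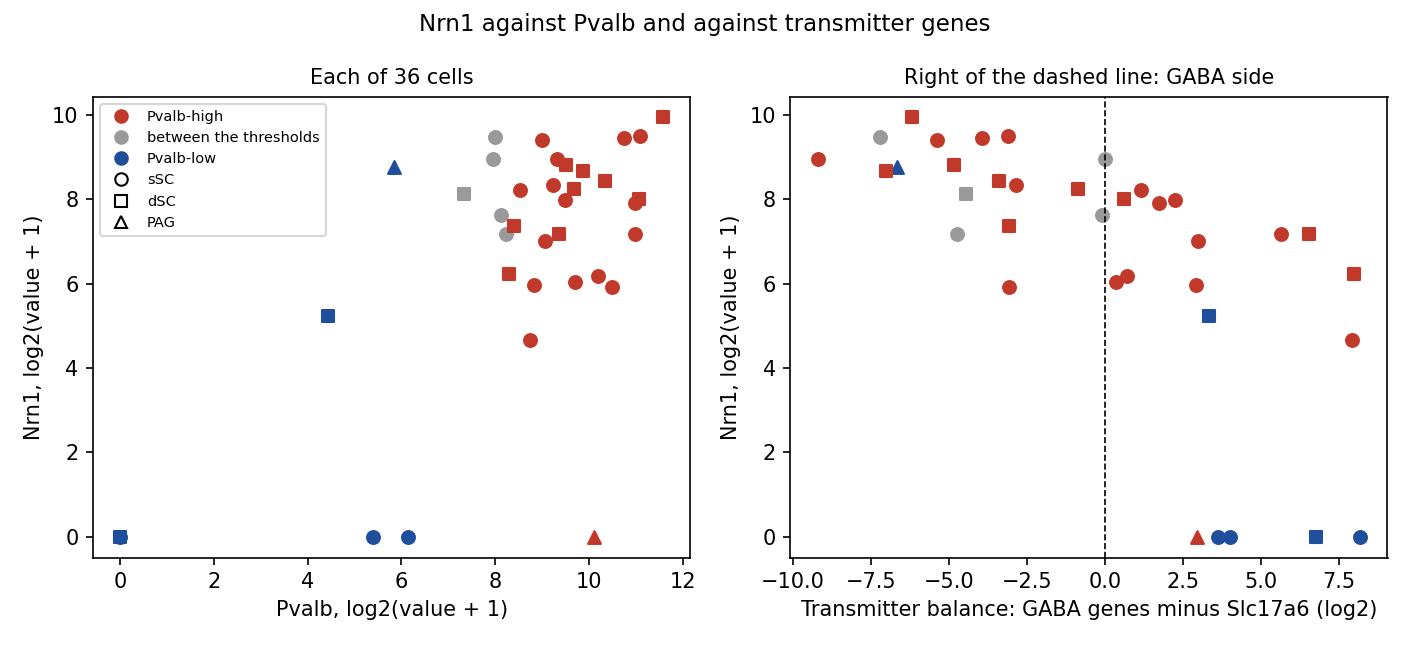
Nrn1 against Pvalb (left) and against the transmitter balance (right) in 36 cells, both genes on log2(value + 1) axes. Of the 5 cells at 0 on the Nrn1 axis, 4 were Pvalb-low and 1 was the Pvalb-high PAG cell of clone D, and all lie to the right of the dashed line, on the GABA side.

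Transmitter genes did not differ past the threshold. The balance averaged -0.30 ± 3.98 over high clones (SD, n = 16) and 2.77 ± 5.61 over low clones (SD, n = 5), a difference of -3.07 (exact permutation p = 0.187, adjusted 0.461). Slc17a6 ran from 0 to 849.9 in high cells with a median of 88.4. In low cells it was 277.8 in the PAG cell of clone H, 20.3 in clone F, 19.2 in clone O and 0 in the other 3. Its difference was 2.29 (SE 1.25, adjusted p = 0.783). Gad1 had medians of 175.4 in high and 346.6 in low cells (difference -0.67, adjusted p = 0.933). Gad2 had medians of 112.9 and 467.1 (difference -0.68, adjusted p = 0.926), and Slc32a1 of 7.36 and 21.5 (difference -0.996, adjusted p = 0.892). Without clone H the balance differed by -5.24 (exact permutation p = 0.0273, adjusted 0.0793), and without clone I by -1.71 (exact permutation p = 0.480, adjusted 0.613).

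Adora1, the gene of the adenosine A1 receptor, which dampens transmitter release, had the smallest p. It was detected in all 25 high cells, from 6.54 to 204.0 with a median of 29.9. In the low cells it was 38.8 in the dSC cell of clone B, 7.21 in clone O and 0 in the other 4. The difference was 3.72 (SE 0.75, adjusted p = 0.348). The cells overlapped, since the clone B dSC cell lay above the high median, but the clone means did not: all 16 high clones lay above all 5 low clones. Adora1 and Cttnbp2 were the 2 of 14737 genes with such a gap (0.0136%), and Nob1 was the 1 with all high clones below (0.00679%). The gaps of Adora1 and Cttnbp2 rested on averaging the dSC cell of clone B with its library of few genes. Without that library 0 genes had all high clones above (0.0% of 14737), and 4 had all below (0.0271%): Nob1, Idh3a, Nap1l5 and Zcchc12, named after their values were seen. Clone B was then at 5.31 for Adora1, where the lowest high clone was at 3.30, and at 6.18 for Cttnbp2, where the lowest high clone was at 4.93 (log2). Adora1 passed the threshold without the trend and robust options of limma (adjusted p = 0.038) and not when the clone B library was left out as well.

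Cttnbp2, which encodes cortactin binding protein 2 of dendritic spines, ran from 16.7 to 233.9 in high cells with a median of 48.8. In low cells it was 71.4 and 0.602 in clone B, 15.8 in clone O, 13.8 in clone I, 9.05 in clone H and 0.194 in clone F. Apart from the clone B dSC cell, each low cell lay below every high cell. The difference was 2.83 (SE 0.70, adjusted p = 0.639). Nob1, a gene for a nuclease of small ribosomal subunit maturation, was named after its values were seen. It ran from 52.0 to 384.9 in the 6 low cells and from 0 to 160.5 in the high cells, of which 19 were at 1 or more (difference -2.70, SE 0.95, adjusted p = 0.731).

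Kitl, the gene of KIT ligand, was at 1 or more in 22 of 25 high cells (median 17.6, highest 148.6). In the low cells it was 1.62 in the dSC cell of clone B, 0.796 in clone H and 0 in the other 4. The difference was 3.69 (SE 0.86, adjusted p = 0.591), and in each of the split clones the high cell had more, 28.9 against 0 in clone F, 42.6 against 0.796 in clone H and 131.5 against 0 in clone O. Ddit3, the gene of the stress-response factor CHOP, ran from 9.89 to 424.8 in high cells. In low cells it was 217.7, 49.9 and 23.1 in the cells from dSC (clones B and O) and PAG, and 0 in the 3 from sSC (difference 3.42, adjusted p = 0.639). The remaining 5 of these 10 genes were Gm2830 (3.41), Gm31763 (3.96), Sf3a1 (3.24), Lamtor5 (3.24) and Dek (2.85), each a log2 difference with an adjusted p of 0.591 or 0.639. Gm2830 is a processed pseudogene, whose reads cannot be told apart from those of its parent gene, and Gm31763 is an antisense gene to Reep3, listed at 0 in all 6 low cells.

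In the lower direction, Pygm, which encodes the muscle form of glycogen phosphorylase, was at 1 or more in 8 of 25 high cells (highest 47.5). In low cells it was 277.4 in clone F, 75.2 and 0 in clone B, 68.5 in clone I, 62.5 in clone H and 37.8 in clone O. The difference was -4.02 (SE 1.03, adjusted p = 0.639), and 5 of 6 low cells against 8 of 25 high cells had the transcript. Cactin, a gene linked to splicing, ran from 0 to 47.9 in high cells and was 27.02 to 310.1 in the 5 low cells other than the clone B library of few genes, where it was 0 (difference -3.52). Lyrm4, for iron-sulfur cluster assembly, was at 45.3 to 175.5 in those 5 cells and had a median of 0.964 in high cells (difference -3.60). Mrrf, a mitochondrial ribosome recycling factor, had medians of 0 and 52.8 (difference -3.36). Gstt2 and Zfp213 differed by -3.62 and -3.24, and the non-coding or antisense genes 2700046G09Rik, AC154766.4, Gm12764 and Gm48765 by -4.54, -4.02, -2.54 and -2.03. All of these had an adjusted p of 0.648 apart from Pygm. Several of these genes overlap one another in the annotation (Lyrm4 with Gm48765, Zfp213 with AC154766.4), so their values are not independent.

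**Figure D3:**
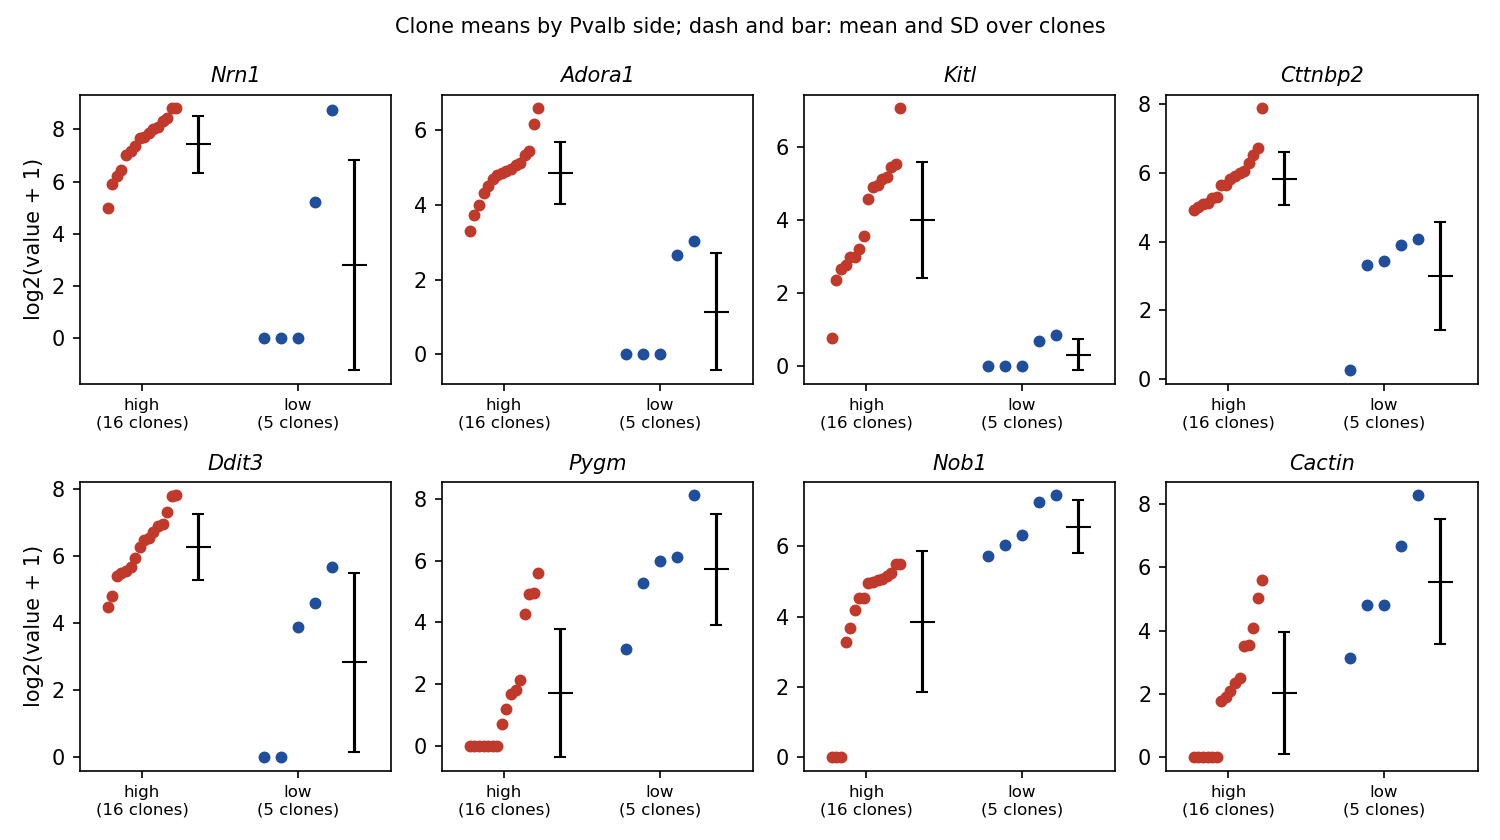
Clone means of 8 genes on log2(value + 1) axes, Pvalb-high (red, 16 clones) and Pvalb-low (blue, 5 clones), with mean and SD over clones in black. For Adora1 and Cttnbp2 every high clone lies above every low clone, for Nob1 every high clone lies below, and for the other 5 genes the sides overlap. Without the clone B library of few genes the sides also overlap for Adora1 and Cttnbp2.

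Fast-spiking genes, as known from cortical parvalbumin neurons, were not called: 21 of 25 listed passed the filter, 17 were higher and 4 lower, and 0 passed the threshold, with a median difference of 0.92 against 0.35 over all genes. At an unadjusted p under 0.05 there were 6 of the 21 higher and 0 lower, against 4.87% and 1.1% of all genes tested. Higher genes made up 81.0% of the list and 65.4% of all genes tested. Kcnab3, a potassium channel beta subunit, had medians of 69.9 in high and 3.896 in low cells (difference 2.89, SE 0.97, adjusted p = 0.731). Ppargc1a, a coactivator of mitochondrial genes, had 33.1 and 3.84 (difference 2.57, adjusted p = 0.731), Kcna1 25.2 and 0.752 (2.41, adjusted p = 0.783) and Kcnc2 80.2 and 20.2 (2.69, adjusted p = 0.783). Kcnc1, the Kv3.1 gene most tied to fast spiking, was on the low side of 0 at -0.61 (SE 0.85, adjusted p = 0.919), with medians of 41.7 and 51.1. Nefh (1.62, adjusted p = 0.783), Syt2 (1.62, 0.790) and Scn4b (1.51, 0.783) were higher, none past the threshold. Without the clone B library the list median was 0.56 against 0.06 over all genes. Within split clones it was -0.41 against -0.76.

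Voltage-gated potassium channels held 25 of 31 tested genes higher (median 0.95) and calcium channels 18 of 22 (median 0.61), with 0 past the threshold in either list. These shares were 80.6% and 81.8%, against 65.4% over all genes tested. Kcnab3, Kcna1 and Kcnc2 belong to the potassium channel list as well as the fast-spiking list, so those lists are not independent. Within split clones the medians were 0.01 and -0.50, against -0.76 over all genes. Cacnb3, a calcium channel beta subunit, had medians of 22.9 and 1.77 (difference 2.37, adjusted p = 0.783), and Cacna1c, the gene of the L-type channel Cav1.2, 18.4 and 5.47 (difference 1.98, adjusted p = 0.783). Of 14 sodium and HCN channel genes 12 were higher, with a median of 0.27. Scn1a, the Nav1.1 gene, differed by 1.28 (adjusted p = 0.783). Hcn3, a hyperpolarisation-activated channel, was at 13.2 to 91.9 in 4 low cells and had a high-cell median of 0 (difference -2.65, adjusted p = 0.783).

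Perineuronal net genes were sparse: 8 of 14 passed the filter, 7 of them higher (median 0.98), and 0 passed the threshold. Higher genes were 65.4% of all genes tested. Within split clones 1 of the 8 was higher, with a median of -0.85 against -0.76 over all genes. Hapln4, a link protein of these nets, had medians of 49.99 in high and 4.04 in low cells (difference 2.02, SE 1.12, adjusted p = 0.783). Acan, the aggrecan gene, did not pass the filter and was listed at 0 in all 6 low cells.

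Among other EF-hand calcium-binding proteins 22 of 32 tested genes were higher, with a median of 0.51 and 0 past the threshold. That is 68.8%, near the 65.4% of all genes tested. Within split clones the median was -0.02. Kcnip3, which encodes the calcium sensor calsenilin, was listed at 0 in all 6 low cells and was at 1 or more in 21 of 25 high cells (median 15.9, highest 67.1, adjusted p = 0.648). S100a16 and S100a10 were at 1 or more in 2 and 1 low cells and in 21 and 17 high cells (differences 3.22 and 3.56, adjusted p = 0.783 for each). Calb1, the calbindin gene, had medians of 117.5 and 10.7 (difference 2.95, SE 1.19, adjusted p = 0.783). Calb2, the calretinin gene, had 168.8 and 134.1 (difference 1.19, adjusted p = 0.887). In low cells Calb1 was highest in clone F at 186.8, where Calb2 was also highest at 986.1. Calcium pumps, exchangers and stores held 15 of 21 genes higher (median 0.68), or 71.4%, and had a median of -0.33 within split clones. Itpr1, the inositol trisphosphate receptor gene, had medians of 31.4 and 6.94 (difference 1.68, adjusted p = 0.783).

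No gene of the other neuronal and metabolic lists passed the threshold. Their counts stand beside a share of 65.4% higher over all genes tested. GABA and glycine receptors had 16 of 19 genes higher (median 0.65), glutamate receptors 18 of 24 (0.84), neurofilament and axon genes 20 of 23 (0.51), vesicle release genes 23 of 34 (0.46), transmitter markers 9 of 14 (0.24) and neuropeptide precursors 8 of 14 (0.13). Within split clones the median of each of these lists was below 0, from -1.91 to -0.24, against -0.76 over all genes. Vamp2, a vesicle SNARE, had medians of 930.6 in high and 1617 in low cells (difference -0.94, SE 0.40, adjusted p = 0.783). Pnoc, the nociceptin precursor, had 4.18 and 69.9 (difference -2.53, adjusted p = 0.783). Collicular and midbrain transcription factors had 17 of 27 higher (0.44). Rorb was at 1 or more in 22 of 25 high cells and in 1 of 6 low cells (difference 2.67), and Nfib in 19 and 4 (difference 2.30), each with an adjusted p of 0.783. Nuclear oxidative phosphorylation genes had 46 of 75 higher (0.17), glycolysis genes 7 of 16 (-0.07) and immediate early genes 9 of 20 (-0.18). These directions rested in part on the clone B library of few genes. Without it, oxidative phosphorylation genes were 18 higher and 57 lower (median -0.21). Glycolysis genes were 1 higher and 15 lower (median -0.55), against a median of 0.06 over all genes. At an unadjusted p under 0.05, 4 of the 16 glycolysis genes were lower, against 444 of 14714 over all genes. Vesicle release genes were then 16 of 34 higher (-0.03), neuropeptide precursors 6 of 14 (-0.35) and immediate early genes 8 of 20 (-0.39). All 10 tested mitochondrially encoded genes were higher (median 0.59), and 9 without that library (0.57). The mitochondrial mt-Nd4 had medians of 9747 in high and 7229 in low cells (difference 0.99, adjusted p = 0.760).

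**Figure D4:**
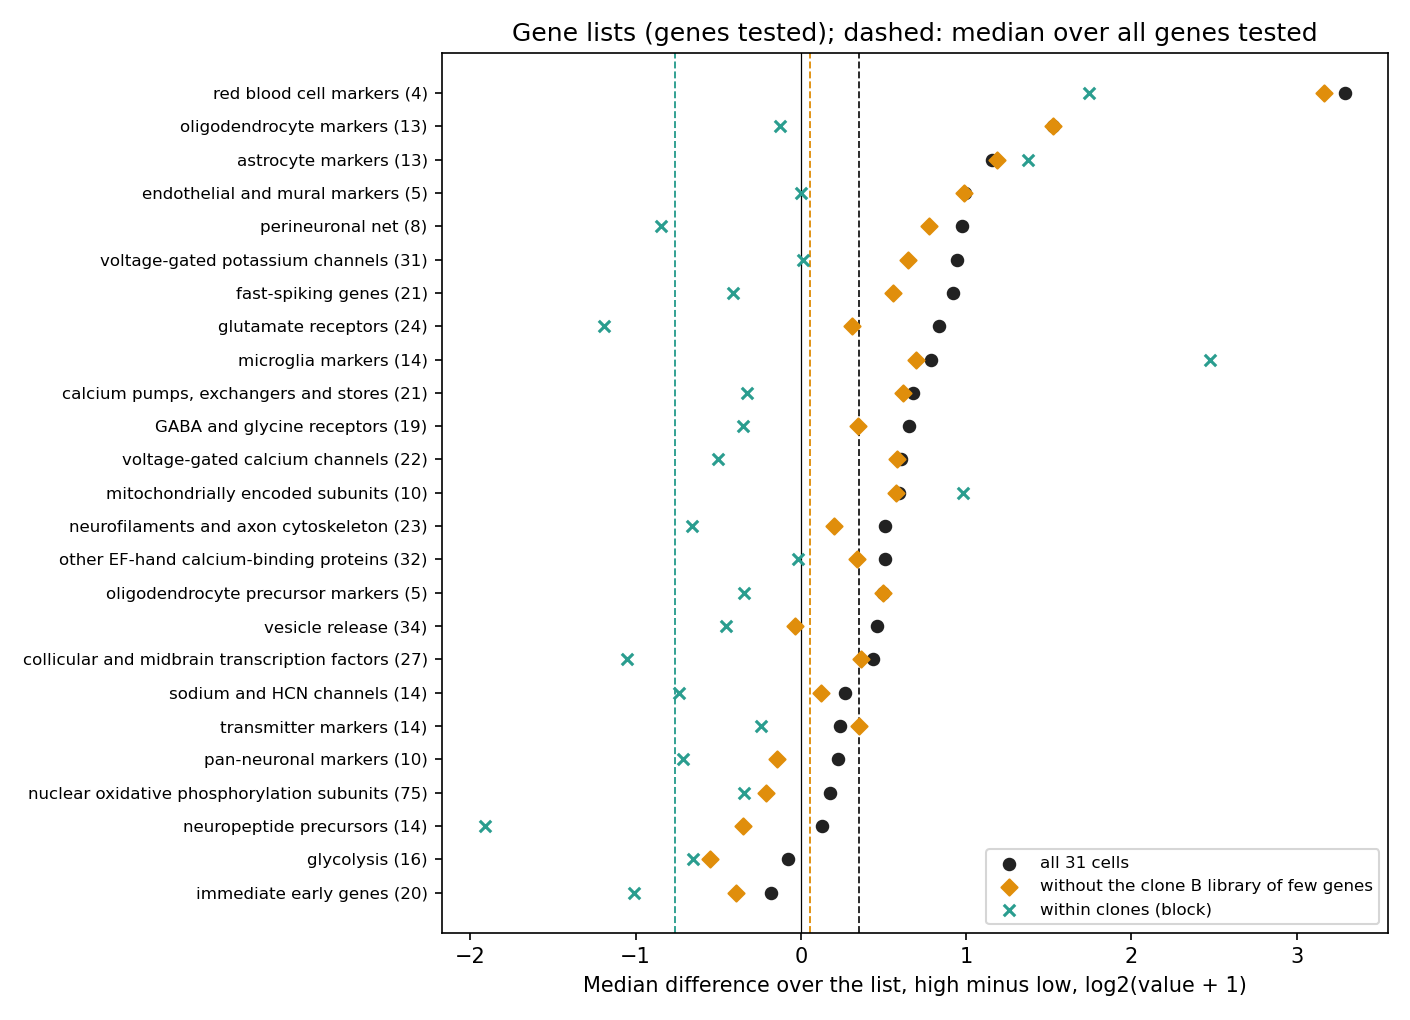
Median difference (high minus low, log2(value + 1)) of each gene list with at least 4 genes tested, for all 31 cells (black), without the clone B library of few genes (orange) and within clones (green), with the median over all genes dashed in the same colour. The red blood cell list lies highest in the first 2, at 3.29 and 3.16, and the median over all genes moves from 0.35 to 0.06 and -0.76.

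Markers of other cell types were measured in the same fit, in which 65.4% of all genes tested were higher. All 4 red blood cell genes were higher in Pvalb-high cells, with a median of 3.29. At an unadjusted p under 0.05, 3 of them were higher, against 4.87% of all genes tested. Hba-a1 ran from 4.95 to 4849 in high cells with a median of 409.3. In low cells it was 1905 in clone H, 479.1 in clone I, 15.9 in clone O, 4.72 and 0 in clone B and 0 in clone F (difference 3.70, SE 1.44, adjusted p = 0.783). Hba-a2 differed by 3.96 (adjusted p = 0.731). These genes are near-identical copies, so how reads were split between them is uncertain. The summed level of the 4 genes ran from 50.7 to 9623 in high cells (median 899.3) and from 0 to 3277 in low cells (median 99.7). Across 36 cells its log2 sum had a Pearson r of 0.69 with log2 Pvalb, 0.56 over the 35 cells without the clone B library and 0.37 within the 25 high cells, as a description of cells that share clones. The gene most like Pvalb over the 36 cells, Rps15, also had an r of 0.69, and 0.61 over the 35.

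Of 13 astrocyte markers 12 were higher (median 1.16), and 4 were so at an unadjusted p under 0.05, against 4.87% of all genes tested. Sox9, a glial transcription factor, was listed at 0 in all 6 low cells and was at 1 or more in 18 of 25 high cells (median 14.7, adjusted p = 0.657). Slc1a2, the glial glutamate transporter, had medians of 56.0 and 9.51 (difference 2.29, adjusted p = 0.731). The summed astrocyte level ran from 440.2 to 2642 in high cells (median 1378) and from 129.9 to 2852 in low cells (median 1791), so the median of the sum was higher on the low side. Oligodendrocyte markers had 12 of 13 higher (median 1.53), with sums of 1192 to 31223 (median 4184) in high and 1455 to 13192 (median 2906) in low cells, and Sox10 at 0 in all low cells. Of 14 microglia markers 10 were higher (median 0.79), with sums of 85.4 to 15932 (median 2321) and 1010 to 8501 (median 2230), and Itgam at 0 in all low cells. Aif1 differed by 2.45 (adjusted p = 0.783). The highest astrocyte, oligodendrocyte and microglia sums on the low side were all in the clone B library of few genes. Endothelial and mural markers had 5 of 5 higher (median 0.99), with sums of 0.308 to 757.9 (median 26.9) and 0 to 39.7 (median 3.04), and Cldn5 and Kdr at 0 in all low cells. Oligodendrocyte precursor markers had 4 of 5 higher (median 0.50, sums of 0 to 812.2 with a median of 76.9 and 30.5 to 128.9 with a median of 52.8), and the 1 ependymal gene tested was higher by 0.55. Across 36 cells the log2 sums had a Pearson r with log2 Pvalb of 0.0075 for astrocyte, -0.013 for oligodendrocyte, -0.15 for microglia and 0.48 for endothelial and mural markers. Over the 35 cells without the clone B library these were 0.17, 0.18, -0.037 and 0.41. No gene of these lists passed the threshold. Their part in the differences above was not tested.

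**Figure D5:**
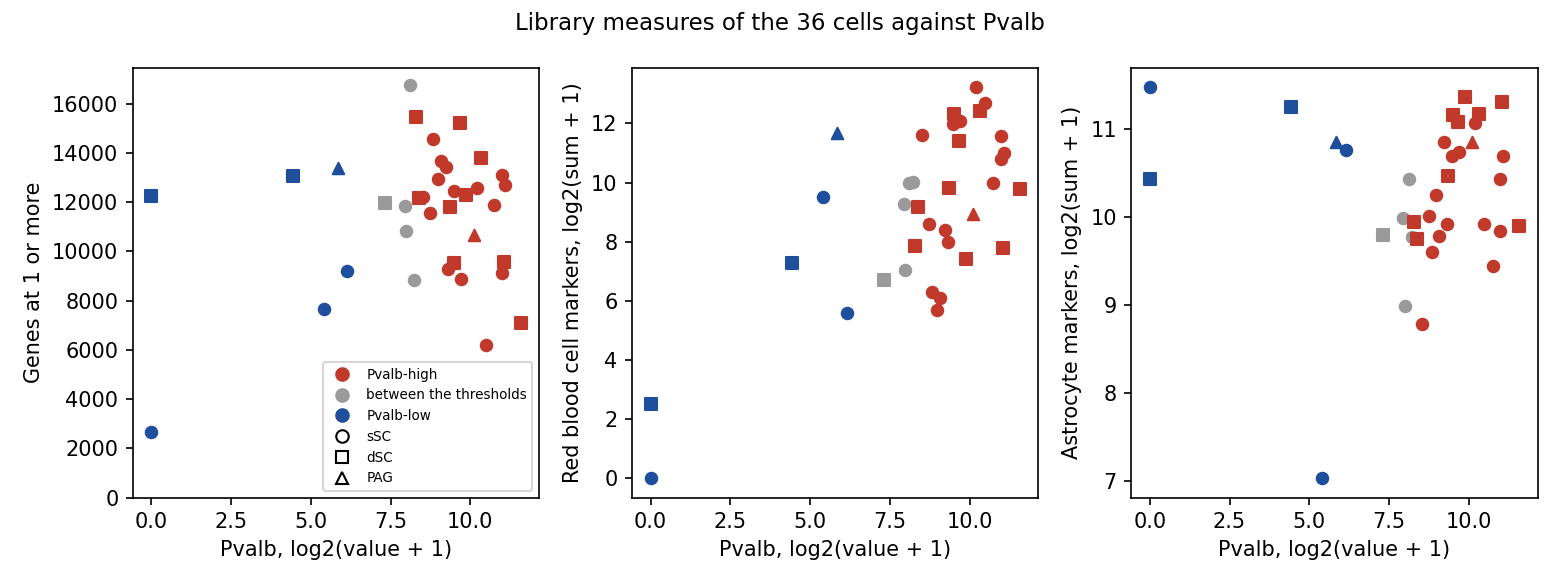
Genes at 1 or more, summed red blood cell markers and summed astrocyte markers (sums on log2(sum + 1) axes) against Pvalb in 36 cells, coloured by Pvalb side and shaped by tissue. The clone B library at the lower left has 2661 genes and no red blood cell signal, and the dSC cell of the same clone has a red blood cell sum of 4.72.

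Within sSC alone, 15 high cells of 10 clones stood against 3 low cells of clones B, F and I. Here 23 of 14190 genes passed the threshold (0.162%), all higher in Pvalb-high cells, and 18 of the 23 were listed at 0 in each of the 3 low cells. Genes at 0 in those cells passed the filter through the high cells alone and had no spread on the low side. Their adjusted p-values cannot tell an absent transcript from one that was not captured. This holds for Gm9917, Tceal1, Tipin and Ddit3 below. The share of genes at 0 in those cells among all genes tested was not counted, so the 18 cannot be read as a result about the called genes. Without the clone B library 20 of 14155 passed (0.141%), 15 of them among the 23, and 2 low clones were left. Of those 20, 15 were higher and 5 lower (Zfp46, Cox7b2, Pygm, A530083I20Rik and Gm45631). Gm9917 had the smallest adjusted p (7.3e-06). It ran from 194 to 2568 in the 15 high cells and was 0 in the 3 low cells. Tceal1 ran from 2.08 to 468.7 and was 0 in all 3 low cells (adjusted p = 0.00609). Tipin, a replication-fork protein gene, was at 1 or more in 14 of 15 high cells and at 0 in the low cells (adjusted p = 0.0116). Shisa3 ran from 14.3 to 1005 in high cells and was 28.2 in the clone B cell and 0 in the others (adjusted p = 0.0214). Ddit3 (6.58, adjusted p = 0.0116), Lamtor5 (6.65, adjusted p = 0.0166) and Gm2830 (6.38, adjusted p = 0.0174) also passed. Without the clone B library Ddit3 (adjusted p = 0.0187) and Gm2830 (adjusted p = 0.0196) passed again, and Lamtor5 did not (5.39, adjusted p = 0.0788). In this comparison the median difference over all genes was 1.37, and 0.69 without the clone B library. The 3 low cells had 2661, 7652 and 9192 genes at 1 or more. The part of genes detected in these calls was not tested.

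Whether the difference depended on tissue was tested as an interaction of Pvalb side with sSC against dSC. It was fitted on 24 means of clone, side and tissue without a clone term, so siblings in different means counted as separate units. Clone B gave a low mean to each tissue. The sSC low cells had 2661, 7652 and 9192 genes detected, and the dSC low cells 12242 and 13048. The part of genes detected in the interaction was not tested. Of 14389 genes 1 passed (0.00695%): Ndufa9, a subunit of mitochondrial complex I. It was listed at 0 in the 3 sSC low cells and was 597.9 and 679.4 in the dSC low cells of clones B and O. In high cells it ran from 32.05 to 711.0 in sSC and from 92.6 to 640.4 in dSC. The interaction (sSC minus dSC of high minus low) was 9.35 (SE 1.35, adjusted p = 0.00118). Low dSC cells overlapped high dSC cells, and in sSC the sides did not overlap. Without clone O, which leaves 1 low cell in dSC, the adjusted p was 0.0649, with that lone clone assumed to vary like the others. At a pseudocount of 10 it was 0.0528. For Nrn1 the interaction was 1.96 (SE 1.64, adjusted p = 0.661).

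The genes most like Pvalb were ranked by Pearson r between log2(value + 1) values over the 36 cells. They were Rps15, a ribosomal protein gene (0.69), Ntng1, netrin-G1, an axonal adhesion protein (0.69), Dpysl2, a microtubule regulator (0.68), Mgll, the lipase that degrades an endocannabinoid (0.68), Rab6b (0.68) and Fxyd7, a sodium pump regulator (0.68). These cells share clones and differ in genes detected. Over the 35 cells without the clone B library the values were 0.61 for Rps15, 0.63 for Ntng1, 0.63 for Mgll, 0.49 for Dpysl2, 0.49 for Rab6b and 0.50 for Fxyd7. For Nrn1 they were 0.64 and 0.55. The ranking itself changed without that library, by a choice made after the values were seen. Tpt1-ps3, a processed pseudogene, then came first (0.67). Tpt1-ps3, Arpp21 (0.59) and Klhl9 (0.59) took the places of Dpysl2, Rab6b and Fxyd7 among the 6. Ntng1 ran from 2.57 to 264.7 in high cells with a median of 31.96. In low cells it was 27.8 in clone F, 4.46 in clone H, 2.98 in clone O, 1.06 in clone I and 0.118 and 0 in clone B. Mgll was at 142.6 in the low cell of clone F and at 0 to 1.48 in the other 5, against a high median of 45.8.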

How the data were processed

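Each of 36 libraries is 1 neuron (SMART-Seq Single Cell PLUS chemistry on polyA RNA, per the labels). The submitters' processing notes list STAR 2.7.9a, R 4.0.3 and GRCm39. How reads were counted, by which annotation, with or without strand and by what formula is not given in the sources used here. What the authors deposited is an expression signal for 55359 genes, with columns that sum to 2000000 each. The plan had assumed plain TPM, and its tests on a log scale serve this signal as well. Depth is unknown, so no counting interval is given, and a 0 may be a transcript that was not captured. Symbols came from GENCODE M21 for 52083 genes.

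Groups were set at Pvalb values of 300 and 100. Genes reaching 1 in 25% of the 31 compared cells entered as log2(value + 1), which understates differences of low genes. Cells of 1 clone and side were averaged, and the 21 means were fitted in limma 3.58.1 (R 4.3.3, trend and robust options). For the interaction with tissue, 24 means of clone, side and tissue were fitted without a clone term. Adjusted p-values are Benjamini-Hochberg, called under 0.05. Pvalb was left out of the tests. The fit was tested on simulated data. Library and transmitter measures had exact two-sided permutation tests over clone means. Sibling cells share an animal by descent, so the clone pairs the sides, but only 3 clones (F, H and O) have a cell on each. The deviations of their 2 cells from the group means correlated at 0.01, -0.09 and 0.04.

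Genes named were the 10 per direction with the smallest p, up to 4 per list, the 6 most like Pvalb and 10 fixed transmitter, calcium-binding and fast-spiking genes. Members, thresholds and lists were chosen with earlier results of these data known. Alternatives changed the pseudocount, filter, normalization, covariates, tissues, thresholds and model, left out each clone in turn and, added after seeing the data, left out the clone B library of few genes.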

Additional observations from a re-analysis of the deposited data

Results flagged for a closer look

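Of 64 groups of 5 low clones examined, 8 held a clone far from the other 4. Chance gives about 1 in 20 only for genes picked without regard to their values, and most of these were named by theirs. On the log2(value + 1) scale, clone F stood apart for Cttnbp2 at 0.26 (others 3.33 to 4.07), Mgll at 7.17 (others 0 to 1.31), S100a10 at 5.39 (others 0) and Rorb at 5.37 (others 0 to 0.36). Clone B stood apart for Dpysl2 at 1.59 (others 6.78 to 7.86), Rab6b at 2.74 (others 6.28 to 6.85) and Fxyd7 at 0.96 (others 8.29 to 10.16). Dpysl2, Rab6b and Fxyd7 were named as most like Pvalb, which was listed at 0 in both clone B cells. The clone B library of few genes was at 0 for each of them and enters the clone B mean. The dSC cell of clone B was also low, with 8.06 for Dpysl2, 43.4 for Rab6b and 2.77 for Fxyd7. Each of these values lay below those of the low cells of the other clones. Clone H, whose low cell came from PAG, stood apart for Gad1 at 0.59 (others 7.61 to 10.16).

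The high-low difference of Ndufa9 differed between the tissues by an interaction test, with a value of 9.35 (sSC minus dSC, limma adjusted p = 0.00118). That value rests on 3 sSC low cells listed at 0, and siblings in different means counted as separate units.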

How the results depend on the processing

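No gene passed the threshold (limma) at pseudocounts of 0.1 and 10, without the filter, with a filter at 10 or within either side, after quantile normalization, with genes detected, driver or transmitter balance as a covariate, with single cells and an estimated clone correlation, with high set at 1000 or more, or without the clone B library of few genes. The count was 1 with tissue as a covariate (Nrn1), 1 without trend and robust (Adora1), 1 with low set under 30, 23 in sSC alone, 457 for the slope over log2 Pvalb and 334 without the split clones. With the clone B library left out as well these were 2, 0, 1, 20, 23 and 31, and 2 when clone H was left out too. Leaving out each clone in turn gave 0 to 2 calls, the 2 without clone H. The median over all genes was 0.55 and 0.17 at pseudocounts of 0.1 and 10 and 0.19 after quantile normalization. With clone as a block, which rests on 3 split clones, 0 genes passed, the median was -0.76, and Gad1 (0.026), Hapln4 (-1.40), Fxyd7 (-1.44), Calb2 (-1.34), Rps15 (-0.10) and Syt2 (-0.40) changed sign.

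The interaction with tissue had 0 calls at a pseudocount of 10, 3 without the clone B library and 1 to 19 when a clone with low cells was left out, 14 without clone F and 19 without clone I. Genes detected differed by 4634 in sSC alone and by 682 to 2523 with a clone left out. The transmitter balance differed by -5.24 to -1.71 with a clone left out, and log2 Snap25, which differed by 0.16, by -0.16 to 0.33, and by -0.12 without the clone B library.

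Other named genes changed sign as follows, and none of these values passed the threshold. Leaving out a clone gave Gad1 -2.35 to 0.046, Calb2 -0.27 to 2.24 and Fxyd7 -0.28 to 2.13. With low set under 30 Calb2 was -0.68, and without the clone B library as well Ndufa9 was -1.33, Ddit3 -0.47, Aif1 -0.071, Lamtor5 -0.061 and Calb2 -0.0063. In sSC alone Gad2 was 0.54 and Calb2 -0.33, and Dpysl2 was -0.051 without the clone B library. Slopes per log2 unit of Pvalb were 0.087 for Gad2, 0.027 for Pnoc, 0.042 for Gm12764 and -0.037 for mt-Nd4. Without the clone B library they were -0.042 for mt-Nd4, 0.042 for Gm12764, -0.017 for Scn1a, 0.017 for Kcnc1, -0.00083 for Cttnbp2, -0.18 for Aif1 and -0.071 for Sf3a1. With the transmitter balance as a covariate Gad1 was 0.87, Gad2 0.45 and Slc32a1 0.14. The balance is itself built from these genes and Slc17a6, so this fit cannot show how they differ with Pvalb. Hcn3 was 0.67 without the split clones, and Kcnc1 0.080 without clone H and the clone B library. The cause was not tested for any of these.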
